A study of Mus musculus with 12 samples.

Results

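The 38 genes described here carry glucose into the cell, run glycolysis, export lactate, admit pyruvate to the mitochondrion and store glucose as glycogen. They were chosen by name from a list that follows the pathway and not by a rule on their measured values, though earlier results of these data were known. All 38 were among the 13232 genes of the deposited table. The cells were bone marrow-derived macrophages, phagocytes grown in culture from marrow progenitors, of wild-type C57B6/J mice. The mice had eaten food of normal fat content, the group called ND here, or a diet high in fat, called HFD. Marrow of both diets was cultured with M-CSF, the growth factor that drives macrophage formation, at 20 ng/ml, and the cultures went into serum-free medium with M-CSF on day 4. On day 7 the cultures used here spent 1 h at 1% oxygen. Each diet had 3 libraries under hypoxia, which gives a comparison of diets in hypoxic macrophages, and the libraries kept at normal oxygen were not analysed here. Both groups therefore share the hypoxia, the serum-free medium and the M-CSF, and no value below measures the response to hypoxia itself. The diet was eaten by the mice and not given to the cultures. The labels give no age of the mice and do not say whether replicates came from separate mice, so p-values measure only the spread between these libraries, which may be technical.

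Glycolysis splits glucose into pyruvate in the cytosol, with a small yield of ATP and no need for oxygen. When oxygen is short, cells reduce pyruvate to lactate and export it, and pyruvate dehydrogenase kinases hold pyruvate back from the mitochondrion. Many of these genes are known targets of the hypoxia-inducible factors, which bind promoters through a short core motif, and inflammatory macrophages are known for a strong reliance on glycolysis. Most steps are served by several paralogs, gene copies whose enzymes differ in tissue, affinity and regulation.

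Promoter sequences are shown for 6 genes that recur below, chosen among those whose window holds the hypoxia-inducible factor core, so that it can be read directly. Of the 38 genes, 37 had windows in the RefSeq promoter table (build GRCm38.p6, from 250 bases before to 50 bases after a start site, 53 windows in all), and *Slc2a3* had none. No window of *Gpi1*, *Tigar*, *Tpi1*, *Dlat*, *Gys1* or *Gbe1* held the core. Each gene is represented by the window with the most matches, or at a tie by the one farther upstream. Capitals mark ACGTG or GCGTG on either strand (CACGT and CACGC when read on the printed strand), and the letters run 5′ to 3′ along the gene's own strand.

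Slc2a1, chr4:119108495-119108794, plus strand: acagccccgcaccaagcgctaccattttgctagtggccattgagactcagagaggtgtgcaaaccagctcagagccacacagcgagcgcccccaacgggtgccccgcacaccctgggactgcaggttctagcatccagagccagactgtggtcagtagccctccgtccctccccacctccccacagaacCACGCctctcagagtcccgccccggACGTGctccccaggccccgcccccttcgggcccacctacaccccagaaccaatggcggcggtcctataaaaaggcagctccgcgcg

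Ldha, chr7:46845554-46845853, plus strand: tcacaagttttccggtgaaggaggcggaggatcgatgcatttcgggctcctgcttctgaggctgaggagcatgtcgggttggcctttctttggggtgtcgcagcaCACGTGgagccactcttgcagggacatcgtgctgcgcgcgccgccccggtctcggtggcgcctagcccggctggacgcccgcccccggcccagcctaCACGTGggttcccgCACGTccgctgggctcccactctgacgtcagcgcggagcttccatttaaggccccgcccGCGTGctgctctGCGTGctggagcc

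Pgk1, chrX:106186850-106187149, plus strand: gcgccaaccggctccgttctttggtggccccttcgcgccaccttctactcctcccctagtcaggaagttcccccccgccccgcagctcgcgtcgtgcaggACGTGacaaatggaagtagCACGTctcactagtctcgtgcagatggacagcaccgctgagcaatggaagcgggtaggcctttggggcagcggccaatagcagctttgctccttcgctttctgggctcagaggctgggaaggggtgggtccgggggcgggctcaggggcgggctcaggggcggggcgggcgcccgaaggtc

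Slc16a3, chr11:120948817-120949116, plus strand: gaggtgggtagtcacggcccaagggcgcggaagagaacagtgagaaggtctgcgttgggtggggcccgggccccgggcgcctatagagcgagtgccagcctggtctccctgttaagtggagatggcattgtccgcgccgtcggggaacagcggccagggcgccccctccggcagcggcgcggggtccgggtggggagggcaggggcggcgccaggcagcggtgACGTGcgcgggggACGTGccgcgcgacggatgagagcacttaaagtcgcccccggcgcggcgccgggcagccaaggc

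Aldoa, chr7:126799205-126799504, minus strand: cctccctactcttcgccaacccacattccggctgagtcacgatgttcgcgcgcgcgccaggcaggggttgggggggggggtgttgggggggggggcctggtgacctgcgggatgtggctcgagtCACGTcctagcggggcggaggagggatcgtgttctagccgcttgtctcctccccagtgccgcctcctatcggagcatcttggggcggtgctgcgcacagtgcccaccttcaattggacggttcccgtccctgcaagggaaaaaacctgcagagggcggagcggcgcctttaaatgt

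Aldoc, chr11:78322823-78323122, plus strand: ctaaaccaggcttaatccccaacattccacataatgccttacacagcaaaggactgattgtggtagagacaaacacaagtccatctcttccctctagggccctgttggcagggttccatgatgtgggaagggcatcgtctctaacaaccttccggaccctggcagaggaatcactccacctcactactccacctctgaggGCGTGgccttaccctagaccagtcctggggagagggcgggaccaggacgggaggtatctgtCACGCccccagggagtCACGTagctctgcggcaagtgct

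The *Ldha* window held 7 matches, the *Aldoc* window 3, the *Slc2a1*, *Pgk1* and *Slc16a3* windows 2 each, and the *Aldoa* window 1. Each CACGTG counts as 2 of these matches, 1 per strand, so the *Ldha* count is larger than its number of marked stretches. Of the 53 windows, 41 (77.4%) held ACGTG or GCGTG, against 61.9% of the 11494 windows of genes in the table and 43.8% of all 32851 windows. ACGTG alone was in 24 of the 53 (45.3%), against 25.7% of the windows of genes in the table, and GCGTG in 29 (54.7%), against 50.3%. The longer CACGTG, which holds ACGTG on both strands, was in 5 windows (9.43%), against 10.2%, and the *Ldha* window holds it 2 times. A match of these letters is a description of the window and not a measured binding site. The *Aldoc* window printed above holds more matches than the *Aldoa* window. Whether matches go with the diet difference was not tested.

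Estimated depth ran from 19046377 to 24491497 reads per library, with ND replicate 3 the lowest. The first principal component (43.3% of the variance of 10794 genes) placed ND replicates 1 and 2 at -14.0 and -13.5, ND replicate 3 at 3.43, and the HFD libraries at 1.33, 11.3 and 11.4. ND replicate 3 thus stood apart from the other ND libraries on the side of the HFD libraries, and results are given with and without it. Because the omitted library is the ND library nearest to HFD, the fit without it is no independent check. All 10 macrophage markers were present, with a summed level of 373226 to 425419 in ND and 370203 to 431316 in HFD, with *Lyz2* the largest part, while the 7 erythroid and 6 dendritic cell markers were not listed in the table. Of the 10, *Cd14* was lower in HFD with no overlap (-0.29, limma adjusted p 0.281) and *Adgre1* higher with no overlap (0.16, limma adjusted p 0.52). Of 10 neutrophil markers 6 were listed, with sums of 1712 to 2455 in ND and 2109 to 3430 in HFD, and *Camp*, *Elane*, *Mpo* and *Ly6g* were not. Of these 6, *Mmp8* did not overlap between diets, at 443, 463 and 452 in ND and 707, 1032 and 834 in HFD (log2 difference 0.90, limma adjusted p 0.113, the second smallest p of the table), and without ND replicate 3 it was also 0.90 (limma adjusted p 0.0196). Of 5 mast cell or basophil markers *Kit* was listed, at 226, 134 and 117 in ND and 73.4, 72.4 and 104 in HFD, with no overlap (log2 difference -0.88, limma adjusted p 0.284). Of 6 B cell markers *Ighm* was listed, at 3061, 2891 and 1889 in ND and 2075, 1876 and 1886 in HFD, so that ND replicate 3 lay within the HFD range. The *Ighm* log2 difference was -0.40 (limma adjusted p 0.41), and without ND replicate 3 it was -0.61 (limma adjusted p 0.0115). The listed T cell marker, 1 of 6 (*Cd4*), stood at 202 to 356 in ND and 98.1 to 230.04 in HFD. The listed stromal markers, 3 of 6, summed to 177 to 549 in ND and 51.8 to 337 in HFD, and the listed adipocyte marker, 1 of 6 (*Fabp4*), stood at 862 to 988 in ND and 772 to 894 in HFD. The 8 proliferation markers summed to 16778 to 20685 in ND and 17055 to 22880 in HFD, highest within each diet in replicate 3, and *Pcna* held the largest share. *Pcna* was higher in HFD with overlap (log2 difference 0.29, limma adjusted p 0.503; 0.45 and 0.0504 without ND replicate 3), with ND replicate 3 within the HFD range, while *Birc5* was lower with no overlap (-0.28, limma adjusted p 0.353) and *Ccnb1* lower with overlap (-0.31, limma adjusted p 0.423). The part of these markers in the results below was not tested. In bulk RNA, a larger number of cells of a type and more RNA per cell cannot be told apart.

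No gene of the table passed a limma adjusted p of 0.05 between diets (0% of 13232 genes), and so none of the 38 did. At an unadjusted p under 0.05 the table had 1401 genes. Values are the authors' normalized gene counts, and a log2 difference is HFD less ND on the log2(value + 1) scale with limma's standard error. Of the 38 genes, 27 were higher and 11 lower in HFD, with a median log2 difference of 0.12 and a range of -0.59 to 0.45. Over all genes, 6470 were higher and 6762 lower, with a median of -0.0034. At an unadjusted limma p under 0.05, 10 of the 38 were higher in HFD, where the background over all genes was 5.4%, and 2 were lower, where it was 5.18%. The 10 were *Slc2a1*, *Gpi1*, *Aldoa*, *Gapdh*, *Pgk1*, *Eno1*, *Pkm*, *Ldha*, *Slc16a3* and *Gbe1*, and the 2 were *Slc2a3* and *Aldoc*. In 8 genes every HFD library lay above every ND library (background 7.44%) and in 2 every HFD library lay below (background 7.07%).

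Without ND replicate 3, 8 of the 38 passed the limma adjusted p of 0.05 with higher values in HFD, namely *Slc2a1*, *Aldoa*, *Pgk1*, *Eno1*, *Pkm*, *Ldha*, *Slc16a3* and *Gbe1*, against a background of 1.22%. None passed with lower values, against a background of 0.537%. The median log2 difference was then 0.17, with 29 genes higher. With limma's array weights, which gave ND replicate 3 a weight of 0.441 and HFD replicate 2 a weight of 3.09, 11 of the 38 passed as higher (background 4.54%) and 2, *Slc2a3* and *Aldoc*, as lower (background 4.02%). The 11 were the 8 named above with *Gpi1*, *Tpi1* and *Pfkfb4* (limma adjusted p 0.0177, 0.0311 and 0.0419 with array weights). These fits share their libraries and are not independent of one another. Across the alternatives, limma gave *Slc2a1* an adjusted p of 0.0105 to 0.932. The span was from 0.0135 to 0.934 for *Aldoa*, from 0.0171 to 0.934 for *Pgk1* and from 0.00854 to 0.882 for *Eno1*. It ran from 0.00995 to 0.888 for *Pkm*, from 0.0177 to 0.934 for *Ldha*, from 0.0106 to 0.932 for *Slc16a3* and from 0.00829 to 0.86 for *Gbe1*. For *Slc2a3* and *Aldoc* it ran from 0.016 and 0.00919 to 0.882. The lowest of these values came with array weights and the highest with ND replicate 1 or HFD replicate 2 left out.

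**Figure D1:**
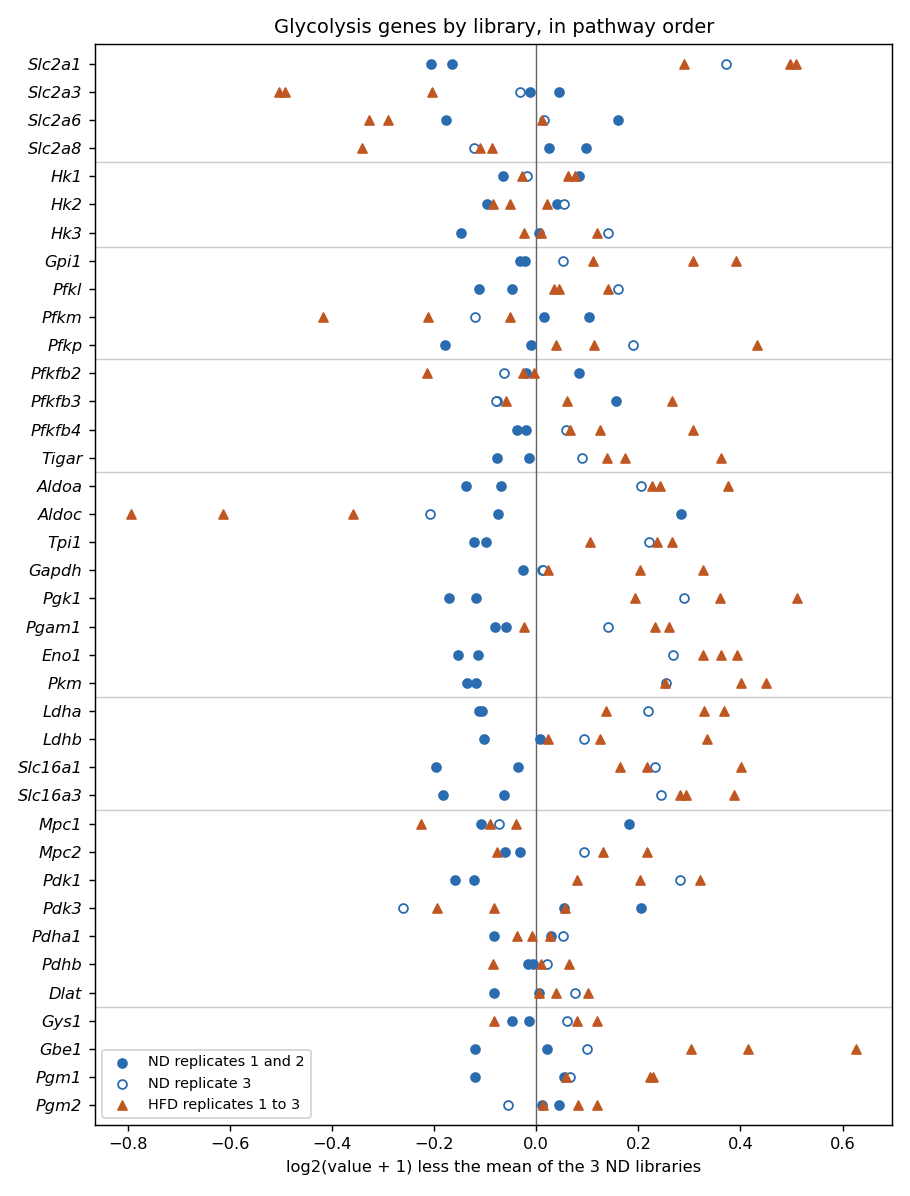
Level of each of the 38 genes in each library, as log2(value + 1) less the mean of the 3 ND libraries (horizontal axis), in pathway order from top to bottom, with grey lines between steps. Filled circles are ND replicates 1 and 2, the open circle is ND replicate 3, and triangles are the 3 HFD libraries; for *Aldoa*, *Eno1* and *Slc16a3* the open circle lies next to the triangles, and for *Aldoc* and *Slc2a3* all triangles lie to the left of all circles.

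At the first step, glucose entry, the 4 transporters did not point the same way. *Slc2a1* encodes GLUT1, the main carrier of basal and induced glucose uptake in macrophages, and lies at chr4:119108711-119137983 (GENCODE M21, GRCm38). Its normalized value was 1263, 1228 and 1832 in ND and 1731, 2000.3 and 2016 in HFD, where the libraries of a diet are always given in the order of replicates 1, 2 and 3. ND replicates 1 and 2 lay below all HFD libraries, and ND replicate 3 lay within the HFD range. The log2 difference was 0.43 (SE 0.14, limma adjusted p 0.327), and without ND replicate 3 it was 0.62 (SE 0.080, limma adjusted p 0.0148).

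*Slc2a3* encodes GLUT3, a carrier of high affinity for glucose, and lies at chr6:122727809-122801640. Its value was 316, 304 and 299.95 in ND and 266, 216 and 218 in HFD. The diets did not overlap, with HFD lower, and here ND replicate 3 lay beside the other ND libraries. *Slc2a3* had a log2 difference of -0.40 (SE 0.11, limma adjusted p 0.278), and without ND replicate 3 it was -0.42 (limma adjusted p 0.133).

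*Slc2a6* (GLUT6) and *Slc2a8* (GLUT8), carriers found largely on internal membranes, had log2 differences of -0.20 and -0.18 with overlapping libraries. Both had a limma adjusted p of 0.599. *Slc2a6* ran from -0.31 without HFD replicate 1 to -0.12 without ND replicate 1, and *Slc2a8* was at -0.098 without HFD replicate 3. Their values were 358 to 503 for *Slc2a6* and 252 to 341 for *Slc2a8* over the 6 libraries. The median log2 difference of the 4 transporters was -0.19, with 1 gene higher and 3 lower in HFD.

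The ratio of *Slc2a3* to *Slc2a1* sets the opposite directions of both genes against each other within each library, where a scaling error of the library cancels. Its log2 was -1.99, -2.01 and -2.61 in ND and -2.70, -3.20 and -3.20 in HFD. Every HFD library lay below every ND library, with ND replicate 3 closest to HFD replicate 1. The ratio differed by -0.83 on the log2 scale (exact two-sided permutation test over 20 assignments, p = 0.1, the smallest that 3 against 3 libraries can give; 0.65 after Benjamini-Hochberg adjustment over 13 paralog ratios). Leaving out 1 library at a time gave -1.03 to -0.73. Per kb of transcript, *Slc2a3* stood at 18.2% ± 4.05 (SD, n = 3) of the *Slc2a1* level in ND and 10.2% ± 2.18 (SD, n = 3) in HFD, using the length of 1 transcript per gene. With the union of exons as length, the share was 8.32% over all libraries.

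Hexokinases trap glucose in the cell by phosphorylating it, and no difference between diets was detectable in their 3 genes at this precision. *Hk1*, the housekeeping form bound to mitochondria, had values of 2296, 2073 and 2140 in ND and 2126, 2284 and 2264 in HFD. *Hk2*, the form induced by insulin and hypoxia in many tissues, had 1466, 1333 and 1480 in ND and 1344, 1375 and 1446 in HFD. *Hk3*, the form that predominates in myeloid cells, had 5998, 5394 and 6586 in ND and 5871, 6491 and 6014 in HFD. In all 3 genes the libraries of both diets interleaved.

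The log2 differences were 0.04 for *Hk1* (95% interval -0.11 to 0.18), -0.04 for *Hk2* (-0.19 to 0.11) and 0.04 for *Hk3* (-0.15 to 0.22). The limma adjusted p ran from 0.882 to 0.912. The log2 ratios between the hexokinases differed by -0.075 (*Hk2* to *Hk1*), -0.0017 (*Hk3* to *Hk1*) and 0.073 (*Hk3* to *Hk2*), with exact permutation p of 0.2, 1 and 0.4. With 1 library left out, the first ran from -0.095 to -0.038, the second from -0.043 to 0.078 and the third from 0.024 to 0.12. Per kb of transcript *Hk3* was the highest in every library, at 367% ± 36.1 (SD, n = 3) of *Hk1* in ND and 366% ± 12.4 (SD, n = 3) in HFD, and by the union of exons at 639% over all libraries. *Hk2* stood at 51.0% ± 2.29 (SD, n = 3) of *Hk1* in ND and 48.4% ± 1.51 (SD, n = 3) in HFD, and by the union of exons at 91.6% over all libraries. The order of the 3 hexokinases was the same under both lengths over all libraries, and the sizes of these shares were not.

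*Gpi1*, glucose phosphate isomerase, converts the product of hexokinase to fructose phosphate. Its value was 5937, 5977 and 6297 in ND and 6556, 7504 and 7962 in HFD. The diets did not overlap, with HFD higher, and ND replicate 3 lay between the other ND libraries and HFD. *Gpi1* had a log2 difference of 0.27 (SE 0.078, limma adjusted p 0.295), and without ND replicate 3 it was 0.30 (limma adjusted p 0.118).

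Phosphofructokinase commits the sugar to glycolysis, and its subunits come from 3 genes. *Pfkl*, the liver-type subunit, had values of 1171, 1225 and 1416 in ND and 1397, 1298 and 1306 in HFD. *Pfkm*, the muscle-type subunit, had 270.5, 254 and 231 in ND and 243, 217 and 188 in HFD. *Pfkp*, the platelet-type subunit, had 1807, 1609 and 2077 in ND and 1869.6, 1971 and 2459 in HFD. Libraries of both diets overlapped in all 3 genes.

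The log2 differences were 0.07 for *Pfkl* (limma adjusted p 0.799), -0.23 for *Pfkm* (0.552) and 0.20 for *Pfkp* (0.61). Without HFD replicate 3 they were -0.13 for *Pfkm* and 0.076 for *Pfkp*, and without ND replicate 2 that of *Pfkp* was 0.11. *Pfkl* was at 0.017 without ND replicate 1 and 0.15 without ND replicate 3. Within libraries, the log2 ratio of *Pfkp* to *Pfkm* was 2.74, 2.66 and 3.16 in ND and 2.94, 3.18 and 3.70 in HFD, a difference of 0.42 (exact permutation p = 0.2), which was 0.21 without HFD replicate 3. ND replicate 3 had a higher ratio than HFD replicate 1, so the diets overlapped. The ratio of *Pfkm* to *Pfkl* differed by -0.30 (exact permutation p = 0.3; -0.19 without ND replicate 1) and that of *Pfkp* to *Pfkl* by 0.12 (exact permutation p = 0.5). Per kb of transcript *Pfkm* was the lowest of the 3 in every library, at 26.0% ± 4.44 (SD, n = 3) of *Pfkl* in ND and 20.9% ± 2.03 (SD, n = 3) in HFD, and by the union of exons at 36.2% over all libraries. The order of *Pfkp* and *Pfkl* depended on the length used: *Pfkp* was at 130% (ND) and 142% (HFD) of *Pfkl* by one transcript's length and at 75.2% over all libraries by the union of exons.

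**Figure D2:**
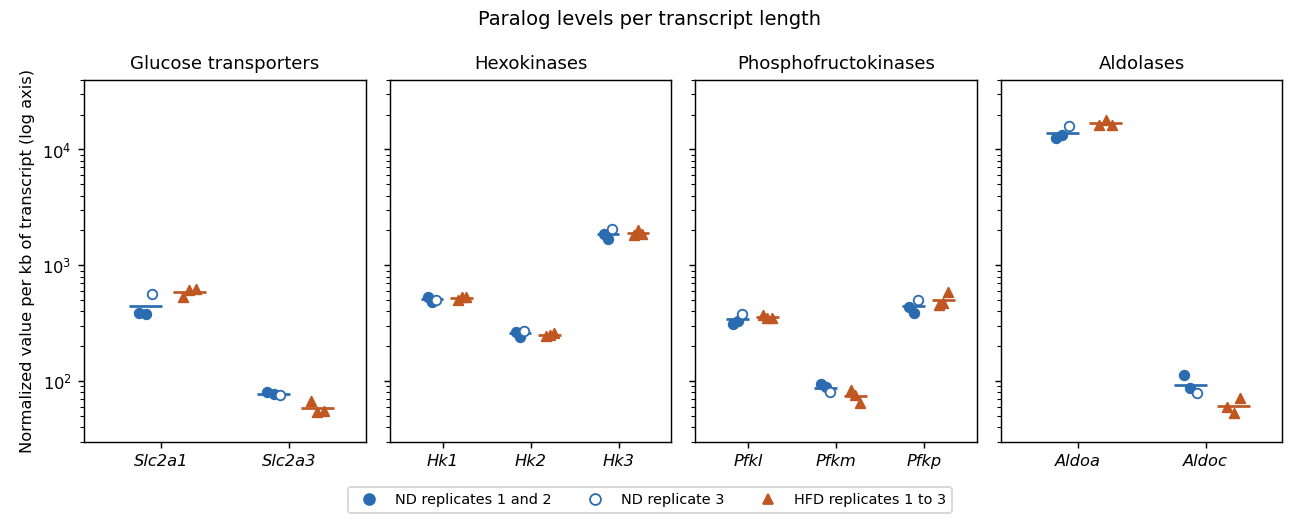
Level per kb of transcript (vertical log axis) of the glucose transporters, hexokinases, phosphofructokinases and aldolases in each library, with short lines at the mean of each diet. Filled circles are ND replicates 1 and 2, open circles ND replicate 3 and triangles HFD; *Slc2a1* and *Slc2a3* are closer together in ND than in HFD, as are *Aldoa* and *Aldoc*, while the hexokinases of both diets interleave.

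Phosphofructokinase is driven by a regulatory sugar bisphosphate, which the bifunctional PFKFB enzymes make and break and which *Tigar*, a p53 target, also breaks. *Pfkfb4* had values of 953, 964 and 1018 in ND and 1067, 1210.1 and 1023 in HFD. *Tigar* had 212, 221 and 237 in ND and 246, 252 and 287 in HFD. In both genes all HFD libraries lay above all ND libraries, for *Pfkfb4* by a gap of a few counts between ND replicate 3 and HFD replicate 3. The log2 differences were 0.17 for *Pfkfb4* (SE 0.078, limma adjusted p 0.496) and 0.23 for *Tigar* (SE 0.10, limma adjusted p 0.486). *Pfkfb4* was at 0.096 without HFD replicate 2 and at 0.26 with array weights. *Pfkfb2* (-0.08) and *Pfkfb3* (0.09), the latter a strongly activating form, overlapped between diets with limma adjusted p of 0.80 and 0.796. Leaving out 1 library gave 0.00053 (HFD replicate 1) to 0.17 (ND replicate 2) for *Pfkfb3*, and *Pfkfb2* was at -0.016 without HFD replicate 2 and -0.19 with array weights.

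From aldolase to pyruvate kinase, 7 of the 8 genes were higher in HFD and *Aldoc* alone was lower, with a median log2 difference of 0.24. *Aldoa*, the main aldolase, which splits the sugar into triose phosphates, lies at chr7:126795234-126800751. Its value was 19550.2, 20496 and 24788 in ND and 25437, 27888 and 25150 in HFD. All HFD libraries were higher than all ND libraries, with ND replicate 3 just below HFD replicate 3. For *Aldoa* the log2 difference was 0.28 (SE 0.097, limma adjusted p 0.357), and without ND replicate 3 it was 0.38 (limma adjusted p 0.0375).

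*Aldoc*, the brain-type aldolase, lies at chr11:78322968-78327781 and was the member with the largest difference by size. Its value was 312, 243 and 222 in ND and 167, 148 and 199.8 in HFD. Every HFD library was lower than every ND library, and the gap between ND replicate 3 and HFD replicate 3 was narrow beside the spread within each diet. The log2 difference was -0.59 (SE 0.15, limma adjusted p 0.278), or 0.665-fold, and without ND replicate 3 it was -0.69 (limma adjusted p 0.0697). Leaving out 1 library at a time gave -0.70 to -0.45. Counting error at this level was about 6.81% of the value.

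The log2 ratio of *Aldoc* to *Aldoa* was -5.96, -6.39 and -6.80 in ND and -7.24, -7.55 and -6.97 in HFD. The HFD libraries were all below the ND libraries, with ND replicate 3 the lowest of ND. The ratio differed by -0.87 on the log2 scale (exact two-sided permutation p = 0.1, adjusted 0.65 over 13 ratios), and by -1.08 to -0.66 when 1 library was left out. Per kb of transcript, *Aldoc* was at 0.682% ± 0.196 (SD, n = 3) of *Aldoa* in ND and 0.367% ± 0.0737 (SD, n = 3) in HFD, and by the union of exons at 1.073% over all libraries. In this pair, as in *Slc2a1* and *Slc2a3*, the paralog of lower level was the one lower in HFD.

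*Tpi1*, triose phosphate isomerase, had a log2 difference of 0.20 with overlapping libraries (limma adjusted p 0.495), and 0.31 without ND replicate 3 (limma adjusted p 0.0549). *Gapdh*, which oxidizes the triose phosphate and is often used as a reference gene, had values of 2742, 2812 and 2817 in ND and 2834, 3213 and 3497 in HFD. The HFD libraries lay above all ND libraries, HFD replicate 1 only slightly, and the log2 difference was 0.18 (SE 0.078, limma adjusted p 0.448), or 0.11 without HFD replicate 3. *Pgk1*, phosphoglycerate kinase, makes the first ATP of the pathway and had values of 2019, 1948 and 2681 in ND and 2509, 2814 and 3125 in HFD. ND replicate 3 exceeded HFD replicate 1 here, so the diets overlapped. The *Pgk1* log2 difference was 0.35 (SE 0.12, limma adjusted p 0.361), and without ND replicate 3 it was 0.50 (limma adjusted p 0.0319).

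*Pgam1*, phosphoglycerate mutase, had a log2 difference of 0.16 with overlapping libraries (limma adjusted p 0.599), which was 0.094 after quantile normalization and 0.25 without HFD replicate 1. *Eno1*, enolase, had values of 3006, 2925 and 3919 in ND and 4083, 4274 and 4181 in HFD. Again the HFD libraries were above all ND libraries and close to one another, with ND replicate 3 nearer to them than to ND replicates 1 and 2. The *Eno1* log2 difference was 0.36 (SE 0.10, limma adjusted p 0.286), and without ND replicate 3 it was 0.49 (SE 0.057, limma adjusted p 0.0118), the smallest adjusted p of the 38 genes in that fit.

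*Pkm*, pyruvate kinase, makes pyruvate and the last ATP, and its 2 splice forms are not separated in these gene values. Its value was 21357, 21098 and 27655 in ND and 27624.5, 31662 and 30604.5 in HFD. ND replicate 3 lay slightly above HFD replicate 1 and well above the other ND libraries. *Pkm* had a log2 difference of 0.37 (SE 0.11, limma adjusted p 0.307), and without ND replicate 3 it was 0.49 (limma adjusted p 0.0202).

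**Figure D3:**
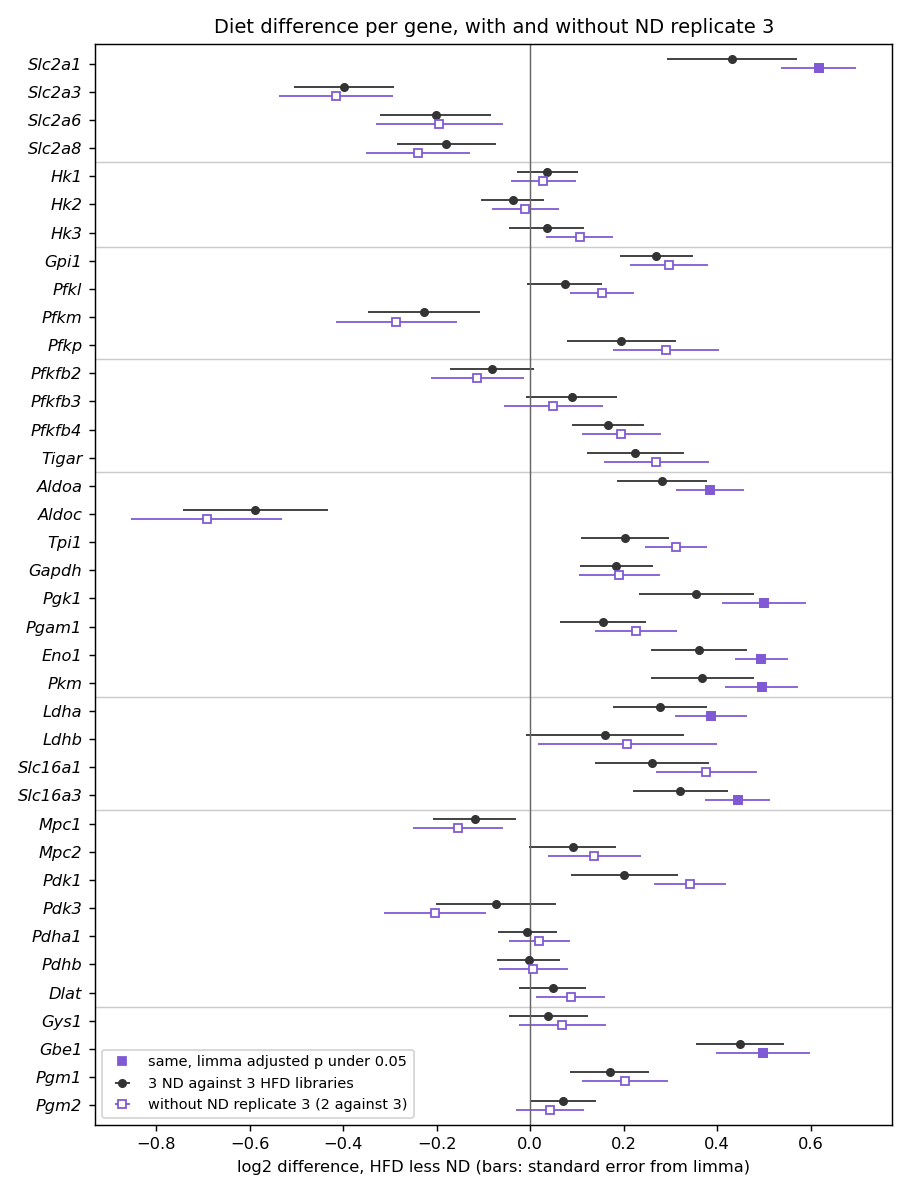
Log2 difference between diets, HFD less ND (horizontal axis), for each of the 38 genes in pathway order, with limma's standard error as bars. Circles use all 6 libraries and squares leave out ND replicate 3, filled where the limma adjusted p over all genes was under 0.05; the 8 filled squares all lie to the right of 0 and no circle passed that threshold.

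The lactate branch held 4 genes and all 4 were higher in HFD, with a median log2 difference of 0.27. *Ldha*, the lactate dehydrogenase form that favours lactate, had values of 6652, 6627 and 8336 in ND and 7869, 8993 and 9246 in HFD. ND replicate 3 lay within the HFD range. *Ldha* had a log2 difference of 0.28 (SE 0.10, limma adjusted p 0.378), and without ND replicate 3 it was 0.39 (limma adjusted p 0.0458). *Slc16a3* encodes MCT4, the carrier that exports lactate from glycolytic cells, and had values of 1212, 1318 and 1632 in ND and 1673, 1802 and 1688 in HFD. Every HFD library was above every ND library, with ND replicate 3 next to HFD replicate 1. Its log2 difference was 0.32 (SE 0.10, limma adjusted p 0.32), and without ND replicate 3 it was 0.44 (limma adjusted p 0.0202).

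*Slc16a1* (MCT1, a carrier that moves lactate in either direction) had a log2 difference of 0.26 with overlapping libraries (limma adjusted p 0.492), or 0.16 without ND replicate 2. *Ldhb*, the form that favours pyruvate, was the lowest of the 38 genes by the length of 1 transcript per gene, with values of 56.9 to 77.4 over the 6 libraries and counting error of about 12.4%. Its log2 difference was 0.16 (limma adjusted p 0.786), with 0.074 when HFD replicate 2 was left out and 0.30 with array weights. The log2 ratio of *Ldhb* to *Ldha* differed by -0.12 and that of *Slc16a3* to *Slc16a1* by 0.061, both with overlapping diets (exact permutation p of 0.5 and 0.6), and the first was -0.030 after quantile normalization and -0.18 to -0.053 with 1 library left out.

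At the entry of pyruvate into the mitochondrion, 3 of the 7 genes were higher and 4 lower, with a median log2 difference of -0.0035, and the libraries of both diets overlapped in all 7. *Pdk1*, a kinase that shuts pyruvate dehydrogenase and a known target of the hypoxia-inducible factors, had the largest difference of the 7. Its value was 2328, 2268 and 3076 in ND and 2675, 2916 and 3165 in HFD. The log2 difference was 0.20 (SE 0.11, limma adjusted p 0.588), and without ND replicate 3 it was 0.34 (limma adjusted p 0.064). Without ND replicate 2 it was 0.12. Its paralog *Pdk3* was at -0.07, or at 0.029 when ND replicate 2 was left out and -0.20 when ND replicate 3 was. The log2 ratio of *Pdk3* to *Pdk1* differed by -0.27 with overlapping diets (exact permutation p = 0.5), and leaving out 1 library moved this between -0.55 (ND replicate 3) and -0.092 (ND replicate 2).

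The pyruvate carrier subunits *Mpc1* and *Mpc2* had log2 differences of -0.12 and 0.09, with -0.028 for *Mpc1* when ND replicate 2 was left out. *Mpc2* was at 0.027 without HFD replicate 1 and 0.17 without HFD replicate 3. The pyruvate dehydrogenase subunits *Pdha1*, *Pdhb* and *Dlat* stood at -0.0066 (95% interval -0.15 to 0.13), -0.0035 (-0.15 to 0.15) and 0.05 (-0.11 to 0.21). Among these 5 genes the limma adjusted p ran from 0.687 to 0.991. Whether these genes differed from the lower steps of glycolysis in their diet difference was not tested.

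*Gbe1*, the glycogen branching enzyme, had the smallest p of the 38 genes and lies at chr16:70313949-70569716. Its value was 760.3, 838 and 884 in ND and 1020.0, 1102 and 1276 in HFD. All HFD libraries were above all ND libraries, and ND replicate 3 was closer to the other ND libraries than to HFD. The log2 difference was 0.45 (SE 0.095, 95% interval 0.24 to 0.66), or 1.36-fold, with an unadjusted limma p of 0.000884 and an adjusted p of 0.195. It was 0.36 to 0.52 when 1 library was left out, and 0.50 without ND replicate 3 (limma adjusted p 0.0473).

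*Gys1*, glycogen synthase, which makes the chain that *Gbe1* branches, was at 0.04 with overlapping libraries (limma adjusted p 0.909). The phosphoglucomutases *Pgm1* and *Pgm2*, which link glucose phosphates to glycogen, were at 0.17 and 0.07 (limma adjusted p 0.534 and 0.766), with 0.11 for *Pgm1* when ND replicate 2 was left out. RefSeq lists each of these 2 symbols as an older name of the other, so which enzyme each row stands for is uncertain.

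Per kb of transcript, by the length of 1 transcript per gene, the members ran from *Aldoa* at 15419.6 normalized counts per kb through *Pkm* at 10965 and *Pgam1* at 4522 down to *Slc2a3* at 68.2, *Tigar* at 66.4 and *Ldhb* at 49.9. *Slc2a1* (515), *Hk1* (514) and *Pfkp* (474) stood side by side in the middle, and their libraries overlapped. By these values the 6 highest members were *Aldoa*, *Pkm*, *Pgam1*, *Ldha*, *Tpi1* and *Gpi1*, and all 6 were higher in HFD. *Gapdh*, *Pgk1*, *Eno1* and *Pgam1* share sequence with copies that could take up part of their reads, so their places in this order are uncertain. With 2 copies added in, *Eno1* stood at 11428 to 16194 over the 6 libraries, against 5937 to 7962 for *Gpi1*. The 38 genes made up 0.470%, 0.465% and 0.554% of all normalized counts in ND and 0.544%, 0.596% and 0.597% in HFD, so ND replicate 3 lay within the HFD range for the whole pathway too.

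**Figure D4:**
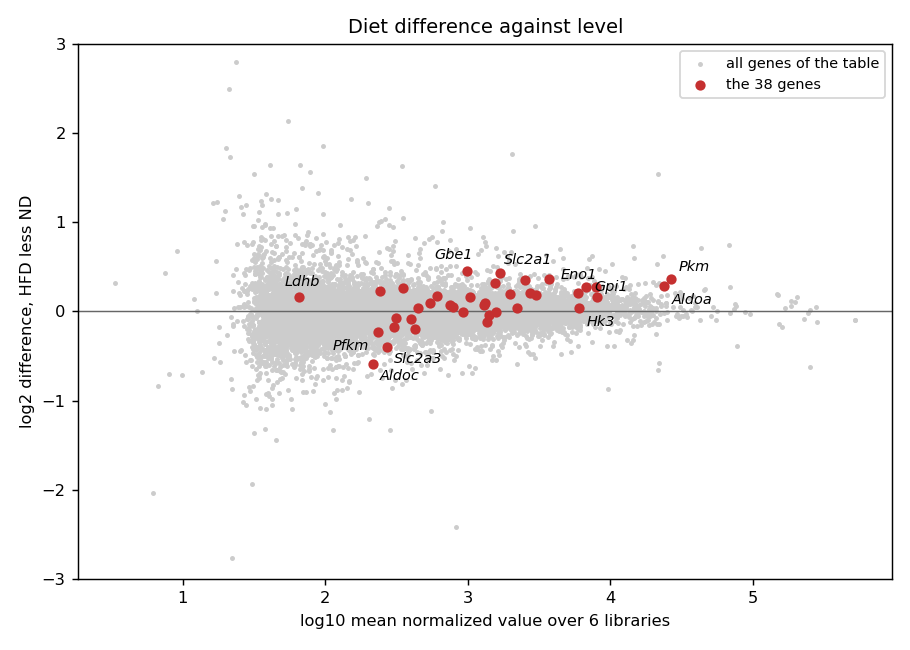
Log2 difference between diets, HFD less ND (vertical axis), against the log10 of the mean normalized value over the 6 libraries (horizontal axis), with all 13232 genes in grey and the 38 genes in red. The highest members, *Aldoa* and *Pkm*, lie above 0, and *Aldoc* and *Slc2a3* lie below 0 among genes of lower level.

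ND replicate 3 was the high ND library along much of the pathway. It lay within the HFD range in 20 of the 38 genes (52.6%) against 48.3% of all genes, and it was the highest ND library in 27 (71.1%) against 38.5% of all genes. The median deviation of the 38 genes from their own mean over the 6 libraries was -0.11, -0.094 and 0.054 in ND and 0.015, 0.085 and 0.045 in HFD on the log2 scale. Of the 8 genes from aldolase to pyruvate kinase, 7 had ND replicate 3 as the highest ND library, the exception being *Aldoc*.

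Over the 6 libraries, the members whose log2 values followed *Slc2a1* most closely were *Pkm* (Pearson r 0.992), *Tpi1* (0.989), *Ldha* (0.988), *Eno1* (0.982) and *Pgk1* (0.981). The lowest correlations were those of *Pfkm* (-0.844), *Slc2a8* (-0.825) and *Slc2a3* (-0.805). The 6 points are 2 diets of 3 libraries each and share each library's scaling, so these are descriptions and carry no test.

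Several members share sequence with pseudogenes or copies, among which the authors' counting could divide reads. The share of a member's 75-base words also found in transcripts of other genes (GENCODE M21) was 80.3% for *Gapdh*, 67.5% for *Pgk1*, 65.4% for *Eno1* and 40.6% for *Pgam1*. It was 1.49% to 24.3% for *Aldoa*, *Tpi1*, *Ldha*, *Gpi1*, *Ldhb*, *Pkm*, *Pdhb*, *Mpc1* and *Pfkfb2*, and 0 for the other 25. The values of *Gapdh*, *Pgk1*, *Eno1* and *Pgam1* are therefore uncertain as gene levels. *Eno1b*, a copy that shares 64.2% of the words of *Eno1*, had values of 6246, 6535 and 7537 in ND and 7778, 8788 and 9062 in HFD, a higher level than *Eno1* itself.

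Copies in the table that share at least 5% of a member's words were then added in, an alternative chosen after seeing the data. This took in 12 of the 17 *Gapdh* copies and 1 of the 3 *Pkm* copies in the table, and all of those of *Eno1*, *Pgk1* and *Pgam1*. With these copies, the log2 difference was 0.31 for *Eno1* with 2 copies, 0.33 for *Pgk1* with 2, 0.21 for *Gapdh* with 12, 0.34 for *Pkm* with 1 and 0.16 for *Pgam1* with 1. The limma adjusted p of these 5 sums ran from 0.324 (*Pkm*) to 0.61 (*Pgam1*). With 1 copy each, *Mpc1* was at -0.074 (limma adjusted p 0.79), against -0.12 alone, and *Pdhb* at -0.0039 (limma adjusted p 0.99). The *Eno1* sum overlapped between diets (ND replicate 3 at 14937, HFD replicate 1 at 14492), while the *Gapdh* sum kept all HFD libraries above all ND libraries. Without ND replicate 3 the sums of *Eno1* (0.44) and *Pgk1* (0.49) both had a limma adjusted p of 0.0215, and that of *Pkm* (0.47) one of 0.0294.

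Genes of neighbouring pathways were counted in the same fit. Of 28 further glycolysis and glucose transport genes, 10 were in the table, 8 higher and 2 lower in HFD, with a median log2 difference of 0.16. The smallest p were those of *Eno1b* (0.34, limma adjusted p 0.275) and *Galm*, which converts between the ring forms of glucose (0.18, limma adjusted p 0.429). *Eno1b* is the copy that shares 64.2% of the words of *Eno1*, so its difference may repeat that of *Eno1*. The pentose phosphate pathway, which draws on the product of hexokinase to make NADPH and ribose, had all 12 of its genes in the table, 9 higher and 3 lower, with a median of 0.086. *Taldo1*, transaldolase, had values of 5209, 6280.1 and 6811 in ND and 7178, 8652 and 7874 in HFD, with no overlap and a log2 difference of 0.38 (limma adjusted p 0.284). *Pgd*, which makes NADPH, stood at 0.29 (limma adjusted p 0.321), and without ND replicate 3 at 0.39 (limma adjusted p 0.0358).

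Of 24 glycogen genes 19 were in the table, 10 higher and 9 lower, with a median of 0.020. The smallest p were those of *Ugp2*, which makes the sugar donor for glycogen (0.19, limma adjusted p 0.404), and *G6pc3*, a glucose phosphatase (0.23, limma adjusted p 0.511). Of 21 genes listed around lactate and pyruvate transport and pyruvate dehydrogenase, 17 were in the table. Of these, 8 were higher and 9 lower, with a median of -0.0047. *Slc16a10* (0.17, limma adjusted p 0.474) and *Slc16a4* (-0.33, limma adjusted p 0.552) had the smallest p. Both were listed by their carrier family, and neither is taken here to carry lactate or pyruvate. No gene of these 4 lists passed the threshold with all libraries. Without ND replicate 3, 2 genes passed as higher in HFD, *Pgd* and the *Eno1* copy *Eno1b* (0.42, limma adjusted p 0.0341), and 2 as lower, where 1.22% of all genes passed as higher and 0.537% as lower. The lower ones were *Gyg*, the primer protein of glycogen (-0.37, limma adjusted p 0.0358), and the monocarboxylate carrier *Slc16a7* (-0.34, limma adjusted p 0.0318), and in both ND replicate 3 was the lowest of all 6 libraries.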

How the data were processed

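Total RNA without ribosomal RNA was measured in stranded libraries, read from a single end over 75 bases, per the labels' protocols. The submitters' processing notes name STAR, Partek and the build mm10, with no versions. What was deposited is a signal: gene counts that the authors estimated and then scaled with 1 factor for each library, so column sums differ. The values themselves show this, as 57.1% to 58.4% of those between 5 and 1000 were whole multiples of 1 read within 0.02 and the rest were fractional, so no count test was run. The notes and labels used here give no counting rule for reads that match several genes. Columns named NC stand for the normal diet here, and each column name gives the replicate number. The number of unmatched columns was 0.

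log2(value + 1) of 3 HFD and 3 ND libraries was compared with limma 3.58.1 in R 4.3.3 (two-sided, with its trend of variance on mean). Benjamini-Hochberg adjustment covered the 13232 genes of the table, and an adjusted p under 0.05 was the threshold. The minimum mean of 1 removed no gene, as the lowest mean was 3.36. The log2 scale with a pseudocount of 1 understates changes of low genes. The 13 paralog ratios were compared within libraries by exact permutation. Levels per kb used the length of 1 GENCODE M21 transcript per gene (GRCm38), and 12964 symbols (98.0%) matched that annotation. Counting error is about 0.612% of the value at *Pkm* and 12.4% at *Ldhb* and covers counting only, since reads that carry no molecular identifier are not independent molecules. The fit was tested on simulated data over 13232 genes, 200 of them altered, where it called 75% of genes altered by 0.5 on the log2 scale and 97.4% of those altered by 1. The simulated noise was independent between libraries and took limma's trend of variance on mean, with no further spread of variance between genes. No simulated library stood apart as ND replicate 3 does, so these shares can overstate what the fit would call in the data. No 2 libraries were duplicates, since their counts differed by a chi-square of at least 8.86 per gene. That closest pair, ND replicate 3 and HFD replicate 1, crosses the diets, and the closest pair within a diet was at 13.2 (ND replicates 1 and 2).

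The 38 genes, the other gene lists and the tests were chosen with earlier results of these data known. All 38 genes are named; library values are printed where diets did not overlap, where the log2 difference was at least 0.3 in size, for the named paralog pairs, and for *Ldha* and *Pdk1*, which were added after their values were seen. From each other list the 2 genes with the smallest p are named, and those that passed without ND replicate 3. Single markers of other cell types were picked after their values were seen. Alternatives were other pseudocounts, filters, scalings, array weights, no trend, a replicate block, removal of GC and length trends, and leaving out each library.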

Additional observations from a re-analysis of the deposited data

How the results depend on the processing

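Of 576 values of the 38 genes under alternatives without the replicate block, 543 kept their direction and side of the threshold, 21 kept direction and passed it, and 12 changed sign. As none of the 38 passed with all libraries, none could lose the threshold. Over the whole table, array weights gave 1133 genes past the threshold. A correction for GC content and length, which covered only the 12964 annotated genes, gave 1. Leaving out 1 library gave 0 to 233, with the 233 found when ND replicate 3 was omitted. The other scalings, filters and pseudocounts gave 0. The sign changed among small differences. Leaving out 1 library gave -0.038 to 0.11 for *Hk3*, -0.20 to 0.029 for *Pdk3*, -0.0475 to 0.0195 for *Pdha1*, -0.038 to 0.037 for *Pdhb* and -0.0021 to 0.099 for *Gys1*. With no change of sign it gave 0.0047 to 0.078 for *Hk1*, -0.086 to -0.010 for *Hk2*, 0.0071 to 0.087 for *Dlat* and 0.043 to 0.10 for *Pgm2*. *Pdhb* was 0.0061 after quantile normalization, 0.015 with array weights and 0.00012 when corrected for GC content and length. Among the ratios, leaving out 1 library gave -0.043 to 0.078 for *Hk3* to *Hk1*, -0.012 to 0.23 for *Pfkp* to *Pfkl*, -0.012 to 0.14 for *Slc16a3* to *Slc16a1* and -0.011 to 0.19 for *Pfkfb4* to *Pfkfb3*, where the cause was not tested. *Ldhb* had no value at a minimum mean of 100. Whether the replicate numbers pair the samples could not be decided. Same-numbered libraries had residual correlations of -0.0086, -0.037 and -0.00069, and no library correlated best with its own number. The highest were 0.15 (ND replicate 2 with HFD replicate 1), 0.13 (ND replicate 3 with HFD replicate 2) and 0.11 (ND replicate 1 with HFD replicate 3). Within each diet the residuals sum to 0, so these correlations constrain one another and cannot exclude pairing. A replicate block gave 31 genes past the threshold, 26 higher and 5 lower in HFD, against 0 without it. Counting error was 0.612% to 12.4% of the value over the 38 genes.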

Other observations

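The list of the tricarboxylic acid cycle, which burns the acetyl group made from pyruvate, also holds the linked cytosolic enzymes *Idh1*, *Aco1*, *Mdh1* and *Acly*. All 21 of its genes were in the table, 17 higher and 4 lower in HFD, with a median log2 difference of 0.043. *Fh1*, fumarase, had values of 1033, 972 and 910.5 in ND and 817, 821 and 815 in HFD, with no overlap and a log2 difference of -0.25 (limma adjusted p 0.286). *Idh1*, the cytosolic form of isocitrate dehydrogenase, was at 0.18 with no overlap (limma adjusted p 0.366).

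Of 24 transcriptional and glucose-sensing regulators of glycolysis, 20 were in the table, 10 higher and 10 lower, with a median of 0.00071. The smallest p were those of *Arrdc4* (0.28, limma adjusted p 0.416) and its paralog *Txnip* (0.17, limma adjusted p 0.436), which both restrain glucose uptake and are known to be induced by glucose. *Txnip* had values of 9821, 9256 and 8592 in ND and 10392, 10642 and 9957 in HFD, with no overlap.

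Of 24 oxygen-regulated genes outside glycolysis, 20 were in the table, 14 higher and 6 lower, with a median of 0.13. *Hmox1*, heme oxygenase, had values of 9717, 11339 and 14256 in ND and 16188, 18687 and 18203 in HFD. All HFD libraries were above all ND libraries, and the log2 difference was 0.60 (SE 0.13, limma adjusted p 0.189), or 0.75 without ND replicate 3 (limma adjusted p 0.0127). *Plin2*, a lipid droplet coat protein, was at 0.32 with no overlap (limma adjusted p 0.285), or 0.41 without ND replicate 3 (limma adjusted p 0.031).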
